A study of Mus musculus with 12 samples.

Results

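The genes described here make and store peptide hormones: the prohormone convertase genes Pcsk1 and Pcsk2, their binding partners Pcsk1n and Scg5, the trimming and amidating enzyme genes Cpe and Pam, and the granin genes Chga, Chgb, Scg2 and Scg3. They were taken by name, through their Ensembl identifiers, and are 10 of the 38561 genes of the count table. All 10 passed the filter on low counts. Islets came from male mice aged 11 weeks, 3 per group, in 4 groups that cross a strain background with a transgene. The groups named B10 and B10_insHEL have the C57BL/10SnSg background and the groups named NOD and NOD_insHEL the NOD/LtJ background, in which autoimmune diabetes arises spontaneously. B10_insHEL and NOD_insHEL carry the transgene labelled Tg(ILK3mHEL)3Ccg, in which an insulin promoter drives hen egg lysozyme. All 4 groups share the Rag-/- genotype, which leaves mice without mature B and T cells, as well as the MHC k haplotype and normoglycemia. The title of the series states the question: how NOD islets differ when no immune infiltrate is present.

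Peptide hormones are made as longer precursors that are cut and trimmed inside secretory granules. Pcsk1 and Pcsk2 encode PC1/3 and PC2, which cut after pairs of basic residues. Carboxypeptidase E, from Cpe, removes those residues, and the enzyme from Pam amidates peptide ends. In beta cells the convertases and carboxypeptidase E turn proinsulin into insulin and C-peptide. Pcsk1n encodes proSAAS, an inhibitor of PC1/3, and Scg5 encodes 7B2, which proPC2 needs to become active and whose C-terminal peptide inhibits PC2. Granins are acidic granule proteins that aggregate with calcium and are themselves cut into peptides.

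Libraries held 2212062 (NOD_insHEL replicate 3) to 21138456 counts (B10 replicate 2), and each of the 10 genes had from 540 to 228373 counts in every library, so that counting error was small beside the spread between mice. Levels are in CPM, read counts set relative to the size of their library, and library sizes were adjusted by TMM, a factor that sets most genes level between libraries. Ins1 and Ins2 held 15.8 to 25.6% of all counts, and beta cell (13 of 13), alpha cell (10 of 10) and delta cell markers (6 of 6) had counts in every group, as the islet label states. Digestive enzyme transcripts of acinar cells set some libraries apart: the 28 acinar genes summed to 3809 to 4903 CPM in B10, 2678 CPM in B10_insHEL replicate 2 and 48.5 to 314 CPM in the other 8 libraries, with Amy2a5 at 0 counts throughout. Transcripts from the mitochondrial genome held 3.59 to 4.22% of counts in NOD and 2.64 to 3.45% in the other groups. Summed alpha cell markers ranged from 21588 to 33309 CPM, apart from 6662 in B10 replicate 3 and 7924 in NOD replicate 2. In whole islets, fewer cells of a type and less RNA per cell cannot be told apart. The sample descriptions number the B10 libraries in a range apart from the other 9. If these numbers mark a batch, it cannot be told apart from the group in any comparison that uses B10.

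Together the 10 genes held 3.50 to 3.61% of counts in B10, 3.83 to 3.89% in B10_insHEL, 2.38 to 2.55% in NOD and 2.99 to 3.35% in NOD_insHEL. These shares did not overlap between any pair of groups. To compare genes with each other, CPM were divided by the exon length in kilobases. On that scale, averaged over the groups, Scg2 (secretogranin II) stood at 3449 CPM per kilobase and Chga (chromogranin A) at 3151. Cpe followed at 1652, Scg5 at 883, Scg3 at 796, Chgb at 704 and Pcsk2 at 510, while Pcsk1n (113), Pcsk1 (108) and Pam (69.3) were the lowest of the 10. Among 15191 genes with an exon length, Scg2 ranked 7 in B10 and 14 in NOD, and Scg5 ranked 26 in B10 and 19 in NOD. Pcsk1 ranked 168 in B10 and 270 in NOD, and 150 in B10_insHEL and 147 in NOD_insHEL. Pcsk1n ranked 193 and 99 without the transgene, and 194 and 188 with it.

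Promoter windows from RefSeq (GRCm38.p6, 250 bases before to 50 after the annotated start) were found for 9 of the 10 genes. They were searched on both strands for the cyclic AMP response element, TGACGTCA, to which CREB family factors bind, and for its core, TGACG, which the full element contains on each strand. The full element was in 3 of the 9 genes, Scg2 (its first base 68 bases before the start), Chgb (72) and Pcsk1 (78), and in 1.79% of all 32851 windows of this length. The core without the full element was in Scg5, Pcsk2, Scg3 and Chga. In all, 7 of 9 genes had the core, against 20.8% of windows, and the windows of Pcsk1n and Pam had none. The windows of the 3 genes with the full element and of Scg5, the gene of the set with the largest rise in NOD, are printed 5′ to 3′ on the gene's strand, with matches in capitals. A match describes the letters of the reference strain only. The NOD sequence was not used here, and no binding was measured.
Scg2, chr1:79439977-79440276, minus strand: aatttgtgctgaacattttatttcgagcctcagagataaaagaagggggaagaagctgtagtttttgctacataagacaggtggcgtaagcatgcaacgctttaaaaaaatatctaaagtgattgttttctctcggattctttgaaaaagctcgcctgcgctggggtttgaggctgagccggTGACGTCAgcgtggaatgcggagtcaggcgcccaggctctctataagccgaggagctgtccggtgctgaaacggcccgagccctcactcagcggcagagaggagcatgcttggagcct
Chgb, chr2:132781392-132781691, plus strand: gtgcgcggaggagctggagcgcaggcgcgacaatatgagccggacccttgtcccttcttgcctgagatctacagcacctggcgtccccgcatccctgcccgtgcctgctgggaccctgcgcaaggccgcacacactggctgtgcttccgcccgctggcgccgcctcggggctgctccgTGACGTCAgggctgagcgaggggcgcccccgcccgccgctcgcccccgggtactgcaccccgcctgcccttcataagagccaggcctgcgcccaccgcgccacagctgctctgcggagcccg
Pcsk1, chr13:75089607-75089906, plus strand: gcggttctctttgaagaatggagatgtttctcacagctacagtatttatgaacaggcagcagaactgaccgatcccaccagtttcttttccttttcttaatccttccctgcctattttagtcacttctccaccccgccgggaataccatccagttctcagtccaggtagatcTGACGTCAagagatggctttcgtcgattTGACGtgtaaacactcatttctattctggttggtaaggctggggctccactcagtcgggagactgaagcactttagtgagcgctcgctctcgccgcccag
Scg5, chr2:113829042-113829341, minus strand: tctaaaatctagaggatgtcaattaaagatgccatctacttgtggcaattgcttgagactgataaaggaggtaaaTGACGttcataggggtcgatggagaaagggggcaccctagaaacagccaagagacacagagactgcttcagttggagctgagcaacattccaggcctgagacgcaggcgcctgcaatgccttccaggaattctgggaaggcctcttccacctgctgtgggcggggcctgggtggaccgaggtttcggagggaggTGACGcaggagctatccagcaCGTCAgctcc
The first 3 sequences each show the 8 capital letters of the palindrome at a similar distance from the start, and Pcsk1 shows a further core nearer to it. The capitals of Scg5 are 3 separate cores, 1 of them 175 bases before the start and the other 2 after it.

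**Figure D1:**
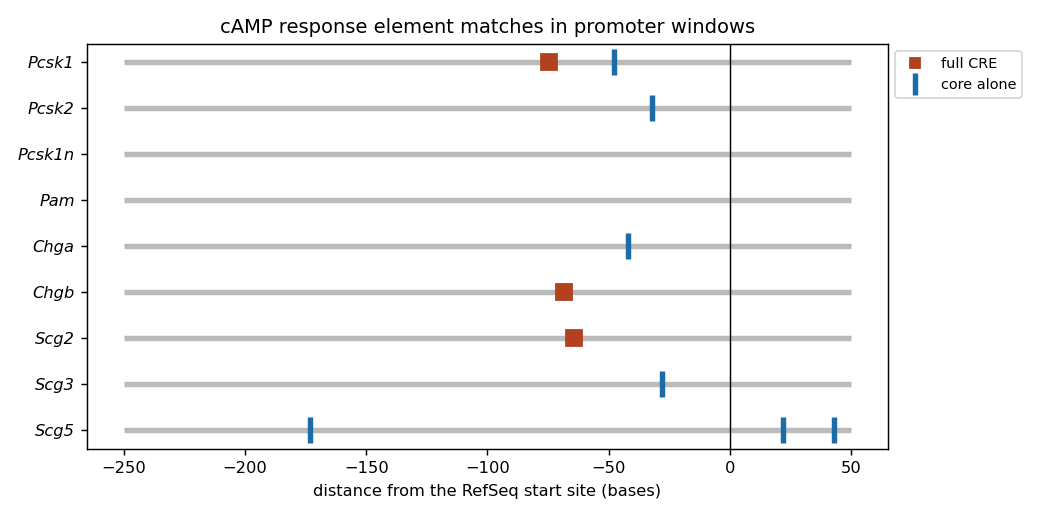
Matches to the cyclic AMP response element in the promoter windows of 9 genes, by distance in bases from the RefSeq start site (grey bars, 250 bases before to 50 after). Red squares are full elements, drawn at their middle, whose first base is 78, 72 and 68 bases before the start in Pcsk1, Chgb and Scg2, and blue ticks are cores alone.

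Strain background changed Scg2 and Scg5 in opposite directions, with and without the transgene. Scg2 was 2.59-fold lower in NOD than in B10 and 2.02-fold lower in NOD_insHEL than in B10_insHEL, while Scg5 was 1.94-fold and 2.32-fold higher. Averaged over the transgene (6 libraries against 6), 5 of the 10 genes passed edgeR's quasi-likelihood test at a Benjamini-Hochberg adjusted p under 0.05, 1 higher and 4 lower in NOD, where 33.3% of all 15352 genes tested passed (15.7% higher, 17.6% lower). Without the transgene 5 of 10 passed (2 higher, 3 lower, against 28.4% of all genes, 13.5% higher and 14.9% lower), and with it 2 of 10 (against 12.1%, 5.55% higher and 6.5% lower). Libraries of both backgrounds did not overlap for 8 of 10 genes without the transgene (47.5% of all genes), for 2 with it (27%) and for 2 over all libraries (11.3%). These comparisons share libraries and are given side by side, not as separate support. The median log2 difference of the 10 genes was -0.15 averaged over the transgene, against 0.01 over all genes tested. With upper-quartile scaling, 3100 genes were higher and 2145 lower in the averaged comparison, against 2406 and 2701 with TMM. Cell markers moved with strain as well: averaged, 22 of 24 acinar genes were lower in NOD, 8 of 13 endothelial genes were higher and 1 lower, 4 of 6 delta cell genes were higher, and of 13 beta cell genes 5 were higher and 4 lower. Their part in the strain differences was not tested beyond the fits given with each gene.

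Scg2 (chromosome 1, 79434669 to 79440120, GRCm38) encodes the precursor of secretoneurin. It had 11055, 10049 and 11053 CPM in B10 and 4377, 3844 and 4171 CPM in NOD. With the transgene it had 12950.0, 13824 and 13053 CPM in B10_insHEL and 7077, 7611 and 5027 CPM in NOD_insHEL. Every library of NOD background lay below every library of B10 background, and the 4 groups did not overlap with each other. The log2 difference was -1.38 without the transgene (SE 0.13, edgeR adjusted p = 2.79e-07) and -1.01 with it (SE 0.13, adjusted p = 1.90e-05). Averaged, it was -1.19 (SE 0.09), and it passed under every alternative tried (-1.26 to -1.08), the acinar and mitochondrial covariates included.

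Scg5 (chromosome 2, 113776362 to 113829121) had 822, 731 and 784 CPM in B10 and 1671, 1422 and 1448 CPM in NOD. It had 1013, 888 and 1038 CPM in B10_insHEL and 2340.2, 2361 and 2108 CPM in NOD_insHEL. Here too no 2 groups overlapped, and the order ran B10, B10_insHEL, NOD, NOD_insHEL. The log2 difference was 0.96 without the transgene (SE 0.11, edgeR adjusted p = 2.34e-06) and 1.21 with it (SE 0.11, adjusted p = 1.33e-07), and 1.09 averaged (95% interval 0.92 to 1.25, and 0.98 to 1.15 under the alternatives, all past the threshold). Its partner Pcsk2 (chromosome 2, 143546156 to 143816285) had 3322 ± 69.6 CPM in NOD and 3744 ± 164 in B10 (SD, n = 3 each). The averaged difference of Pcsk2 was -0.07 (95% interval -0.23 to 0.10, adjusted p = 0.538), an interval that lies wholly below that of Scg5.

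The ratio of Scg5 to Pcsk2 reads within a library, which needs no scaling between libraries, was 0.208 ± 0.0142 in B10 and 0.219 ± 0.0019 in B10_insHEL. It was 0.456 ± 0.0439 in NOD and 0.497 ± 0.0316 in NOD_insHEL (SD, n = 3 each). The lowest ratio of NOD background, 0.419, was above the highest of B10 background, 0.221. The averaged log2 difference of the ratio was 1.15 (exact permutation test within transgene status, two-sided, p = 0.005, the smallest that its 400 labelings allow, and adjusted p = 0.01 over 4 ratios).

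Pcsk1 (chromosome 13, 75089826 to 75134861) was lower in NOD than in B10. It had 607, 542 and 596 CPM in B10 and 371, 459 and 413 CPM in NOD, and these groups did not overlap. In B10_insHEL it had 766, 697 and 744 CPM and in NOD_insHEL 738, 740.2 and 592 CPM, which did overlap. The log2 difference was -0.49 without the transgene (SE 0.11, edgeR adjusted p = 0.00305) and -0.09 with it (95% interval -0.33 to 0.15, adjusted p = 0.668), and -0.29 averaged (SE 0.08, adjusted p = 0.00825). The test of the difference between both strain effects, which is the interaction, did not pass (0.40, SE 0.16, adjusted p = 0.324). In the same comparison NOD libraries had the higher mitochondrial share. With that share as a covariate, an alternative chosen after the data were seen, the difference without the transgene was -0.55 (adjusted p = 0.105).

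Set against the insulin transcripts, Pcsk1 had 3.65 ± 0.0849 reads per 1000 insulin reads (Ins1 plus Ins2) in B10 and 3.65 ± 0.550 in B10_insHEL. In NOD it had 1.78 ± 0.169 and in NOD_insHEL 2.87 ± 0.554 (SD, n = 3 each). The log2 difference between backgrounds was -0.70 (exact permutation test, two-sided, p = 0.005, adjusted p = 0.01). Averaged on the log2 scale, the insulin genes themselves were higher in NOD background, Ins1 by 0.53 (edgeR adjusted p = 4.45e-04) and Ins2 by 0.34 (0.00867), against -0.29 for Pcsk1. Without the transgene they differed by 0.75 and 0.465. Among insHEL islets neither passed (Ins1 0.30, edgeR adjusted p = 0.186, Ins2 0.22, 0.322). They held 15.8 to 17.6% of counts in B10 and 16.3 to 21.6% in B10_insHEL, lowest in replicate 2, which had the most acinar RNA of that group. The part of acinar RNA in this was not tested. The Pcsk1 to insulin ratio of all 6 libraries of NOD background (1.62 to 3.22) lay below that of the 6 of B10 background (3.33 to 4.29). No other substrate was set against Pcsk1. Iapp, another prohormone gene of beta cells, was lower in NOD background (averaged -0.60, edgeR adjusted p = 1.12e-05). Between Pcsk1 and Pcsk2 the ratio was 0.156 ± 0.0124 in B10 and 0.125 ± 0.0117 in NOD, and with the transgene 0.165 ± 0.00834 in B10_insHEL and 0.151 ± 0.00792 in NOD_insHEL. Its log2 difference was -0.23 (exact permutation test, p = 0.01, adjusted p = 0.0133), and the ranges of both backgrounds overlapped.

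Pcsk1n (chromosome X, 7919822 to 7924410) was higher in NOD than in B10, in the absence of the transgene. In B10 it had 242, 238 and 153 CPM, and in NOD 336, 304 and 323 CPM. With the transgene these were 252, 186 and 261 CPM for B10_insHEL and 222, 211 and 254 CPM for NOD_insHEL. NOD stood above the other 3 groups, which overlapped with each other. The log2 difference was 0.61 between NOD and B10 (SE 0.16, edgeR adjusted p = 0.00746) and -0.03 between NOD_insHEL and B10_insHEL (95% interval -0.36 to 0.30, adjusted p = 0.933). Averaged it was 0.29 (adjusted p = 0.0521), and this passed with DESeq2 (0.0414), library totals (0.0412), upper-quartile scaling (0.0249) and no filter (0.0110). These were 4 of the 8 alternatives other than leaving out a library, over which the average ran from 0.078 to 0.35 (adjusted p up to 0.733). With 1 library left out it passed in 4 of 12 fits (adjusted p up to 0.143). With the acinar score (the mean log2 CPM of the 24 tested acinar genes) as a covariate the difference between NOD and B10 was 0.27 (adjusted p = 0.418). With the mitochondrial share it was 0.53 (adjusted p = 0.352), and with the islet number 0.55 (adjusted p = 0.0521). The ratio of Pcsk1n to Pcsk1 reads was 0.364 ± 0.0961 in B10 and 0.784 ± 0.122 in NOD, and with the transgene 0.315 ± 0.0435 in B10_insHEL and 0.338 ± 0.0787 in NOD_insHEL (SD, n = 3 each). Its averaged log2 difference of 0.61 (exact permutation test, p = 0.04, adjusted p = 0.04) was 0.09 within the libraries that carry the transgene (exact permutation test, p = 0.8). The call was lost without B10 replicate 3, B10_insHEL replicate 2, NOD replicate 1, 2 or 3, or NOD_insHEL replicate 3 (adjusted p 0.055 to 0.08). Of both libraries with few alpha cell transcripts, B10 replicate 3 had the lowest Pcsk1n value and NOD replicate 2 had 304 CPM, above every library outside NOD.

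**Figure D2:**
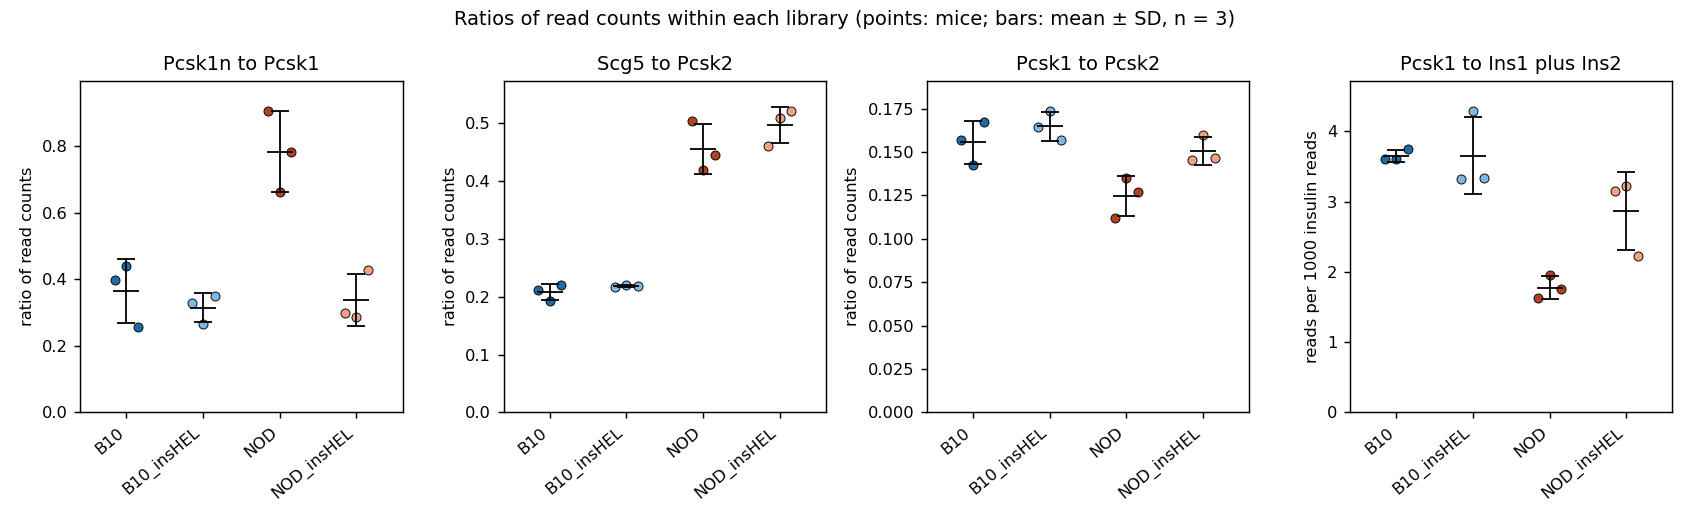
Ratios of read counts within each library, by group (points are mice, bars the mean ± SD, n = 3). The vertical axes are ratios, and for Pcsk1 against insulin the reads per 1000 insulin reads. The ratio of Scg5 to Pcsk2 separates both backgrounds, with 0.419 as the lowest NOD value and 0.221 as the highest B10 value, while that of Pcsk1n to Pcsk1 sets apart NOD alone.

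Among the other granins and enzymes, Chga (chromosome 12, 102554969 to 102565028) was lower in NOD. It had 9343, 10290.0 and 10098 CPM in B10 and 7278, 7204 and 6733 CPM in NOD, without overlap (log2 difference -0.49, SE 0.13, edgeR adjusted p = 0.00655). That call was lost with the islet number as a covariate (-0.41, adjusted p = 0.0774) and with the mitochondrial share (-0.63, adjusted p = 0.0594). With the transgene Chga overlapped, with 8042 to 11131 CPM in B10_insHEL and 7518 to 9176 in NOD_insHEL (-0.20, 95% interval -0.46 to 0.06). Pam (chromosome 1, 97795114 to 98095646) passed in the average, at -0.23 (SE 0.08, adjusted p = 0.0274), a call lost without B10 replicate 1 or 2, B10_insHEL replicate 2, NOD replicate 2 or 3, or NOD_insHEL replicate 3 (adjusted p 0.0505 to 0.0720). It was lost as well with upper-quartile scaling (-0.17, adjusted p = 0.0850), the acinar score (-0.18, 0.295), the islet number (-0.25, 0.0581) and the mitochondrial share (-0.10, 0.482). Between NOD and B10, Pam differed by -0.29 (adjusted p = 0.0513) and passed with DESeq2 (0.0188), library totals, no filter, only both groups compared and the replicate block (0.0287 to 0.0449). These were 5 of the 9 alternatives other than leaving out a library, over which it ran from -0.32 to -0.0017 (adjusted p up to 0.998). With 1 library left out it passed in 4 of 12 fits (adjusted p up to 0.173). Cpe (-0.14, 95% interval -0.30 to 0.02), Chgb (-0.17, -0.34 to -0.01, adjusted p = 0.104) and Scg3 (0.08, -0.08 to 0.24) did not pass. Each of these intervals lay nearer to 0 than that of Scg2.

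**Figure D3:**
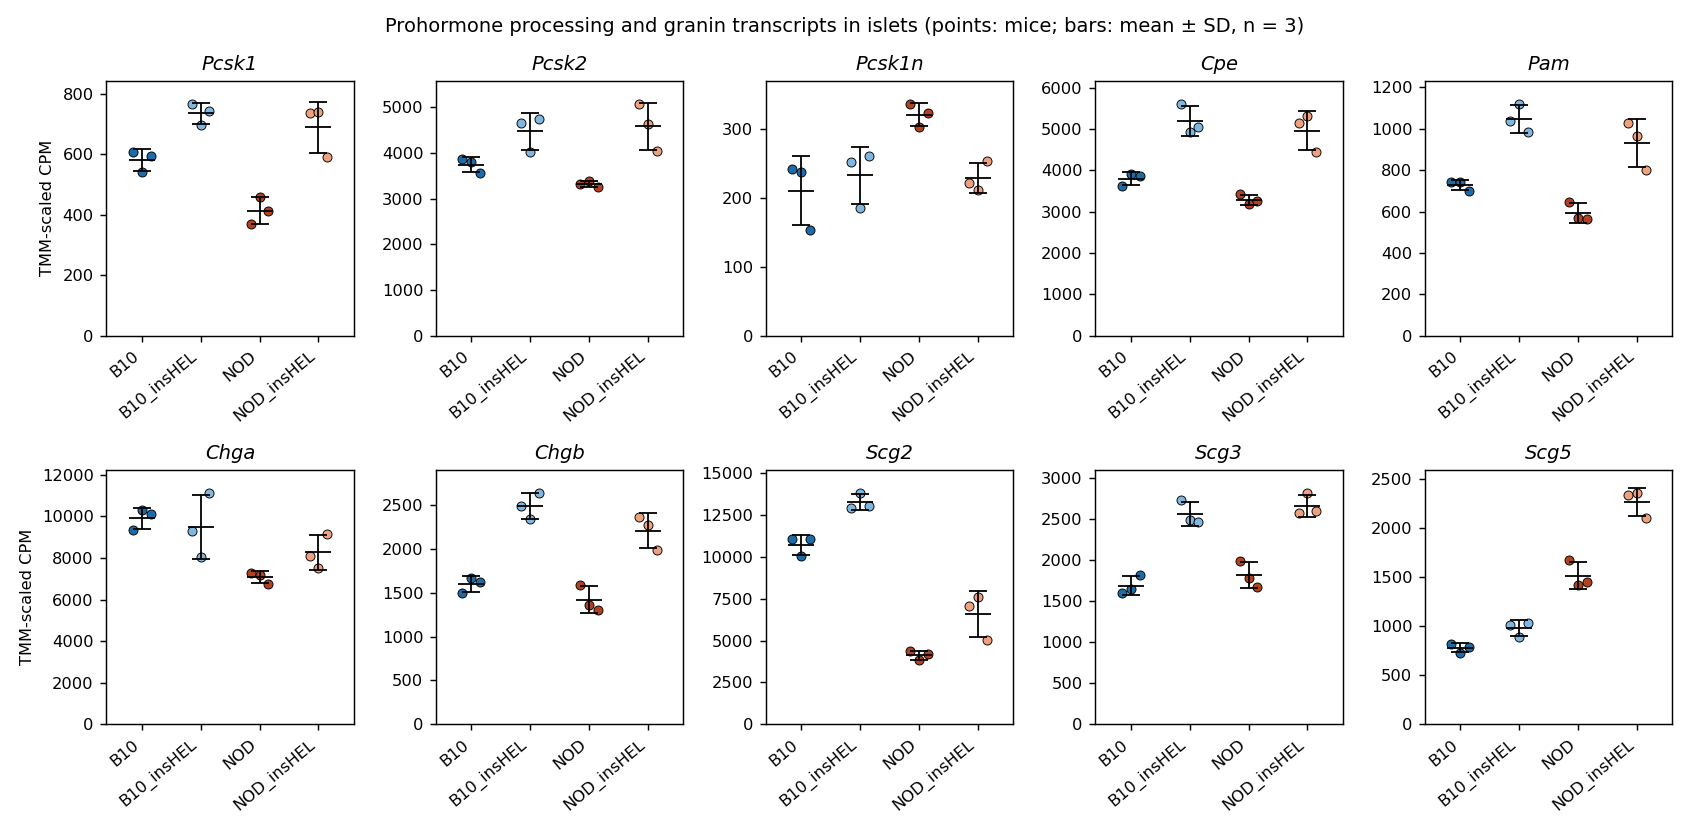
TMM-scaled CPM of the 10 genes in each group (points are mice, bars the mean ± SD, n = 3; each panel's vertical axis starts at 0). Scg2 is lower and Scg5 higher in both groups of NOD background, and Chgb, Scg3, Cpe and Pam stand higher in both insHEL groups than in the groups without it.

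With the insHEL transgene 8 of the 10 genes rose in NOD islets and 4 in B10 islets. In NOD 0 fell (7.06% of all genes tested passed, 3.88% higher and 3.18% lower). In B10 0 fell as well (6.85% of all genes, 4.09% higher and 2.76% lower). These comparisons set different libraries against each other, but both come from the same fit, with a shared estimate of the spread. The median log2 difference of the 10 genes was 0.59 in NOD and 0.33 in B10, against -0.01 and -0.0004 over all genes tested. Libraries with and without insHEL did not overlap for 8 genes in B10, all higher with insHEL (26.7% of all genes did not overlap, 13.1% higher), and for all 10 in NOD, 9 higher and 1 lower (26.6%, 13.3% in each direction). By unadjusted p under 0.05, 1 gene was lower in NOD (Pcsk1n) and 0 in B10, and DESeq2 called 1 and 0. Scaling by library totals, without TMM, moved the median of all genes by -0.14 in B10 and by -0.09 in NOD. All genes then split into 332 higher and 1261 lower in B10 (628 and 424 with TMM) and 285 and 860 in NOD (596 and 488), while 3 of the 10 genes rose in B10, and 8 rose and 1 fell in NOD.

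The 4 genes called in both backgrounds were Chgb, Scg3, Cpe and Pam. Chgb (chromogranin B, chromosome 2, 132781278 to 132795079) had 1497, 1672 and 1617 CPM in B10 and 2491, 2339.9 and 2638 CPM in B10_insHEL. In NOD it had 1591, 1365 and 1305 CPM and in NOD_insHEL 2366, 2266 and 1988 CPM. Within each background every insHEL library lay above every library without it, as for 13.1% of all genes in B10 and 13.3% in NOD. The share of all genes for which this held in both backgrounds was not counted. The log2 difference was 0.64 in B10 (SE 0.11, edgeR adjusted p = 0.00198) and 0.64 in NOD (SE 0.11, adjusted p = 0.00434), a 1.56-fold and 1.55-fold rise.

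Scg3 (secretogranin III, chromosome 9, 75643189 to 75684056) binds cholesterol-rich granule membranes and chromogranin A. It had 1602, 1645 and 1816 CPM in B10 and 2728, 2482 and 2461 CPM in B10_insHEL. It had 1989.5, 1781 and 1676 CPM in NOD and 2567, 2815 and 2592 CPM in NOD_insHEL. Again the libraries with and without insHEL did not overlap within either background. Its log2 difference was 0.60 in B10 (SE 0.11, edgeR adjusted p = 0.00220) and 0.55 in NOD (SE 0.11, adjusted p = 0.00734).

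Cpe (chromosome 8, 64592542 to 64693054) had 3618, 3911 and 3859 CPM in B10 and 5598, 4935 and 5051 CPM in B10_insHEL. In NOD it had 3414, 3189 and 3255 CPM and in NOD_insHEL 5146, 5303 and 4430.0 CPM. The differences were 0.45 (SE 0.11, edgeR adjusted p = 0.0158) and 0.59 (SE 0.11, adjusted p = 0.00557). Pam went from 727 ± 24.5 CPM in B10 to 1047 ± 67.3 in B10_insHEL and from 593 ± 46.3 in NOD to 931 ± 116 in NOD_insHEL (SD, n = 3 each), and differed by 0.53 (adjusted p = 0.00613) and 0.65 (adjusted p = 0.00432). Both enzymes act after the convertases, and for both no insHEL library overlapped with one lacking it within either background. The Cpe call in B10 was lost without B10 replicate 1, 2 or 3 or B10_insHEL replicate 1 (adjusted p 0.0518 to 0.0786), and the Pam call without B10 replicate 3 (0.0555).

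Pcsk1, Scg2, Scg5 and Pcsk2 passed edgeR's test in NOD islets and not in B10. With DESeq2, Pcsk1 (0.33, adjusted p = 0.0336) and Scg5 (0.32, adjusted p = 0.0194) passed in B10 as well. Pcsk1 differed by 0.74 in NOD (SE 0.11, edgeR adjusted p = 0.00220), the largest difference of the 10 there, and by 0.34 in B10 (SE 0.11, adjusted p = 0.0740). For Scg2 these were 0.67 (adjusted p = 0.00759) and 0.31 (adjusted p = 0.169), for Scg5 0.58 (0.00603) and 0.33 (0.0708), and for Pcsk2 0.46 (0.0185) and 0.26 (0.180). All 4 genes had higher values in each insHEL library than in each library without it, within either background (13.1% of all genes in B10 and 13.3% in NOD). A larger effect in NOD was not shown: the interaction called 0 of the 10 genes (0.0586% of all genes tested passed), and 0 by DESeq2. Before adjustment 2 genes were under 0.05, in opposite directions, Pcsk1n (-0.64) and Pcsk1 (0.40). The Pcsk2 call in NOD was lost without NOD replicate 2 or 3 or NOD_insHEL replicate 1 or 2 (adjusted p 0.0573 to 0.113), and the Scg2 call without NOD_insHEL replicate 1 or 2 (0.0545 and 0.0593).

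Chga and Pcsk1n did not pass in either background in the fit reported. Chga differed by -0.06 in B10 (95% interval -0.32 to 0.20, edgeR adjusted p = 0.824) and 0.23 in NOD (-0.03 to 0.49, adjusted p = 0.288). Pcsk1n differed by 0.14 in B10 (-0.18 to 0.47, adjusted p = 0.649) and by -0.49 in NOD (-0.82 to -0.16, adjusted p = 0.0649). In NOD, Pcsk1n passed as lower with DESeq2 (adjusted p = 0.0356), library totals (0.0230), no filter (0.00367), only both groups fitted (0.00667) and the acinar score (0.0161). These were 5 of the 9 alternatives other than leaving out a library (adjusted p up to 0.618). With 1 library left out it passed in 2 of 12 fits, without B10 replicate 3 (0.0264) or B10_insHEL replicate 2 (0.0283), and the adjusted p reached 0.235. Both of these libraries lie outside the comparison. Pcsk1n was the one gene of the 10 whose NOD_insHEL libraries all lay below the NOD libraries.

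**Figure D4:**
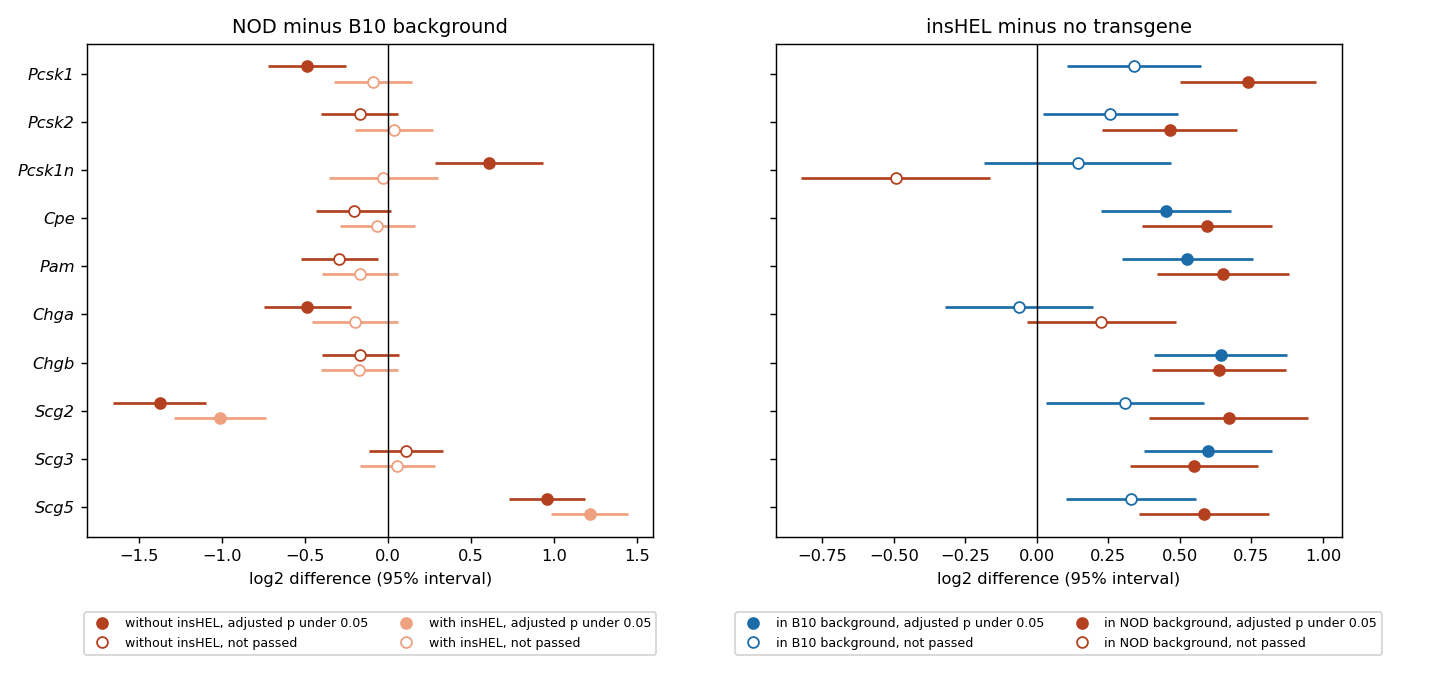
Log2 differences with 95% intervals for strain (left, NOD minus B10) and for insHEL (right, with minus without), from edgeR. Filled points passed an adjusted p of 0.05. On the left Scg2 and Scg5 lie on opposite sides of 0 in both comparisons, and on the right 8 filled points in NOD and 4 in B10 lie above 0.

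**Figure D5:**
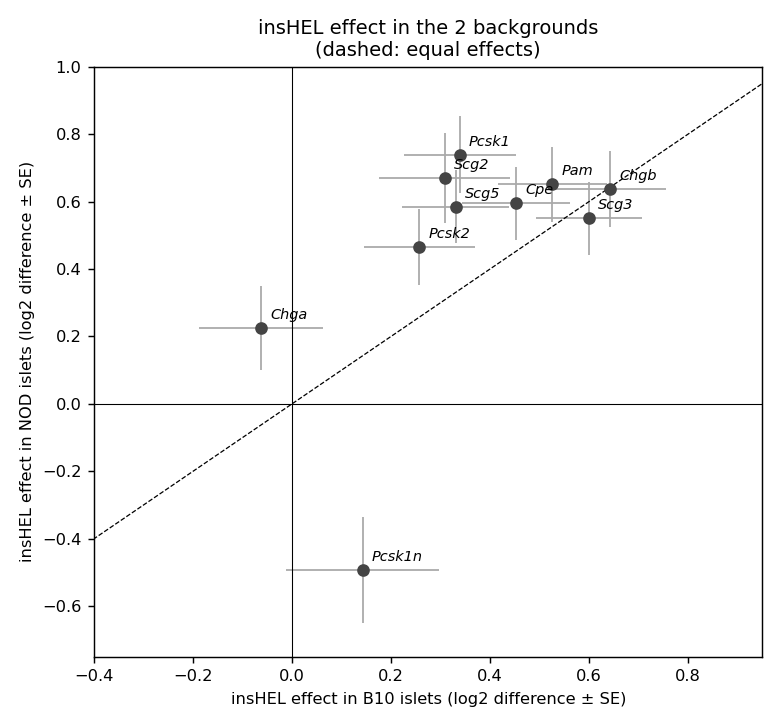
The insHEL effect on each gene in B10 islets (horizontal axis) and in NOD islets (vertical axis), log2 difference ± SE. Pcsk1n lies farthest from the dashed line of equal effects, below it, at 0.14 in B10 and -0.49 in NOD. Pcsk1, Scg2, Scg5, Pcsk2, Chga, Cpe and Pam lie above the line and Chgb and Scg3 near or below it. None of the differences between backgrounds passed the interaction test.

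Other measures moved with the transgene comparisons. Acinar transcripts were higher in B10 (3809 to 4903 CPM summed over 28 genes) than in B10_insHEL (48.5 to 2678 CPM), although 0 of 24 tested genes passed. With the acinar score as a covariate 0 of the 10 genes and 1.54% of all genes passed in B10, with Chgb at 0.51 (edgeR adjusted p = 0.151), Scg3 at 0.53 (0.119), Cpe at 0.36 (0.369) and Pam at 0.61 (0.0609). Without B10_insHEL replicate 2, the insHEL library with most acinar RNA, 5 of 10 passed (10.1% of all genes), and without B10 replicate 3, from 20 islets, 2 passed (2.76%). In NOD the mitochondrial share was higher (3.59 to 4.22%) than in NOD_insHEL (2.77 to 3.45%). With that share as a covariate, again chosen after the data were seen, 0 of the 10 passed and 0.013% of all genes did, while the 8 called genes had differences of 0.35 to 0.80. Endothelial markers were also lower in NOD_insHEL, 9 of 13 tested genes (1187 to 1413 against 1581 to 2232 CPM summed), none of them at 0 counts. The part of acinar RNA, mitochondrial RNA and endothelial RNA in these results was not tested beyond these fits. Between NOD_insHEL and NOD 0 of 10 alpha cell genes passed and 1 of 13 beta cell genes, which was lower. Between B10_insHEL and B10 1 alpha cell gene was higher, and of the beta cell genes 2 were higher and 3 lower.

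Lists of related genes were counted beside the 10. Of all genes tested, 4.09% rose and 2.76% fell with insHEL in B10, and 3.88% rose and 3.18% fell in NOD. Averaged over the transgene, 15.7% were higher and 17.6% lower in NOD background, and among insHEL islets 5.55% and 6.5%. No list was tested as a set against these shares. Of 7 other proprotein convertase genes 0 rose and 3 fell with insHEL in B10, and 0 rose and 2 fell in NOD. Pcsk4, a convertase known from germ cells, fell by 0.87 in B10 (edgeR adjusted p = 0.00384) and 0.86 in NOD (0.00950) on the log2 scale. The median log2 difference of the 7 with insHEL was -0.23 in B10 and -0.38 in NOD. Averaged over the transgene, 3 of the 7 were lower and 0 higher in NOD background (median -0.16). Among them Furin differed by -0.37 (adjusted p = 0.00153) and Mbtps1 by -0.22 (0.0222).

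Of 14 tested peptidase and peptide modifying genes, 2 rose with insHEL in B10 and 0 in NOD, and 0 fell in either (medians 0.02 and 0.11). Cyb561, the granule membrane protein that passes electrons to the amidating enzyme, rose by 0.55 in B10 (edgeR adjusted p = 0.0155) and differed by 0.24 in NOD (0.301). Averaged over the transgene, 1 was higher and 3 were lower in NOD background (median -0.14), against 15.7% and 17.6% of all genes. Qpctl, a Golgi enzyme that forms N-terminal pyroglutamate, differed by -0.79 (adjusted p = 5.09e-06), and Anpep, an aminopeptidase, by -1.42 (2.15e-05).

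Of 8 other granule proteins 2 rose and 0 fell with insHEL in each background, and Nucb2 was among them in both (medians of the 8, 0.42 in B10 and 0.30 in NOD). Nucb2, which encodes the nesfatin precursor, went from 229 ± 7.60 to 500 ± 108 CPM in B10 background and from 248 ± 17.1 to 514 ± 103 CPM in NOD background (SD, n = 3 each). It rose by 1.12 in B10 (edgeR adjusted p = 2.04e-04) and 1.05 in NOD (0.00139). Vgf, which encodes a granin-like precursor, rose by 1.23 in NOD (0.00912), from 9.63 ± 2.76 to 21.8 ± 7.83 CPM, and differed by 0.70 in B10 (0.0637). Vgf was also lower in NOD background, by -0.84 averaged (8.09e-04), as was Ptprn2, the granule membrane protein phogrin, by -0.67 (3.06e-06). In all, 4 of these 8 were lower and 1 higher in NOD background (median -0.12).

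Of 41 tested genes of granule biogenesis and acidification 18 were lower and 3 higher in NOD background averaged over the transgene, and 4 lower and 2 higher among insHEL islets alone (medians -0.12 and -0.07). Ap1g1, a subunit of the AP-1 adaptor that sorts cargo at the trans-Golgi network, differed by -0.65 averaged (edgeR adjusted p = 1.60e-05), and Golph3, a Golgi phosphoinositide-binding protein, by -0.49 (7.55e-05). Atp6v1a, a subunit of the proton pump that acidifies granules, differed by -0.39 averaged (1.72e-04) and by -0.08 among insHEL islets (0.653). With insHEL 6 of the 41 rose and 2 fell in B10, and 8 rose and 0 fell in NOD (medians 0.07 and 0.12). Rab3d, a small GTPase of secretory granules, rose in both, by 0.70 (0.00453) and 0.57 (0.0197). Kif1a, a motor of dense core vesicles, fell by 0.66 in B10 (0.00171).

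Among 20 tested prohormone genes, the substrates of these enzymes, 3 rose with insHEL in B10 and 1 in NOD, and 0 fell (medians -0.07 and 0.06). The opioid precursor gene Pdyn (prodynorphin) rose in both, from 123 ± 15.7 to 311 ± 69.1 CPM in B10 (1.34, edgeR adjusted p = 0.00220) and from 134 ± 32.2 to 246 ± 56.9 CPM in NOD (0.89, adjusted p = 0.0229; SD, n = 3 each). Averaged over the transgene, 6 were higher and 2 lower in NOD background (median 0.30). The lower ones were Iapp (-0.60, adjusted p = 1.12e-05) and Ghrl (-6.23, adjusted p = 3.21e-07). Npy had 10.1 ± 3.44 CPM in B10 and 146 ± 46.9 in NOD, and 6.20 ± 1.80 in B10_insHEL and 59.2 ± 47.4 in NOD_insHEL. Its log2 difference was 3.48 averaged (edgeR adjusted p = 3.47e-04), 3.86 without the transgene and 3.10 with it. The enkephalin precursor gene Penk had 6.87 ± 1.99 CPM in B10 and 17.4 ± 1.97 in NOD. With the transgene Penk had 4.36 ± 1.80 CPM in B10_insHEL and 11.6 ± 2.09 in NOD_insHEL (averaged log2 difference 1.38, adjusted p = 8.83e-06).

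Across the 12 libraries, the genes with the pattern nearest to Scg2, by the root mean square difference of log2(CPM + 0.5) centred on each gene's mean, were Cd44 (0.159), Akr1c14 (0.175) and Scoc (0.178), among 9224 genes. Their averaged strain differences were -1.26, -1.19 and -1.27. For Pcsk1, the nearest were Sdcbp (0.107), Yipf6 (0.121) and Edem3 (0.121), whose insHEL differences in NOD were 0.51, 0.63 and 0.65. The like genes were picked over these same libraries, so that differences near those of Scg2 and Pcsk1 follow from the choice. Scg2 and Pcsk1 were the genes of the set with the largest averaged strain difference and the largest insHEL difference.

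Some reads could not be assigned with certainty. Pcsk2 shares 260 exon bases with the antisense gene Pcsk2os1, which had 3185 counts over all libraries against 544480 for Pcsk2, and Pcsk1n shares 135 with Eras, which had 1 count. Pam shares 188 bases with a noncoding gene on its own strand, with 384 counts against 110755. The strand setting of the counting is not given in the sources used here. Whether reads from NOD alleles were lost in mapping to the reference was not tested.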

How the data were processed

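Per the labels, islets were freed with collagenase while transcription inhibitors were present, enriched on a density gradient and picked by hand, and the library kit keeps strand. The authors deposited unnormalized counts, with Ensembl genes as rows and mice as columns. The submitters' processing notes name cutadapt, TopHat2 2.0.8b, HTSeq, DESeq and GRCm38. The annotation release, strand setting and counting mode are not given in the sources used here.

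Symbols, coordinates and exon lengths came from GENCODE vM21 by identifier (95.0% of identifiers matched). Counts were fitted in edgeR 4.0.16 (R 4.3.3) with filterByExpr (15352 genes kept), TMM, 4 group means over all 12 libraries and robust quasi-likelihood dispersions, and p-values were Benjamini-Hochberg adjusted over all genes tested in each of 6 comparisons. Standard errors are the absolute log2 difference divided by the square root of F. The code was tested on simulated data. Ratios were tested by exact permutation within transgene status. DESeq2 1.42.0, other scalings, no filter, covariates, a replicate block and leaving out each library were alternatives. Intervals cover the spread between these mice.

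The 10 genes and the gene lists were chosen with earlier results of these data known. From each list, up to 4 genes with the highest and 4 with the lowest difference among those past the threshold could be named, and marker genes with their range. Libraries of 1 group differed beyond sampling noise, so that none was counted as a duplicate. Labels describe the libraries as separate mice. For 1 gene of the listed convertases no values are reported here.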

Additional observations from a re-analysis of the deposited data

How the results depend on the processing

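The strain calls of Scg2 and Scg5 held under every alternative run. Of the values of single genes, 470 outside the leave-one-out fits kept their direction and side of the threshold, 16 passed only under the alternative, 24 were lost and 10 changed sign; with 1 library left out the numbers were 675, 13, 17 and 15. The cause of these changes was not tested.

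The number of the 10 genes called moved by more than 1.5 times in these cases. For NOD against B10 it was 3 when adjusted for islet number (17.5% of all genes) and 2 for the mitochondrial share (3.83%), against 5 (28.4%) in the fit reported. For the averaged strain difference it was 3 with the islet number (25.4%). For B10_insHEL against B10 it was 0 with the acinar score (1.54%), and for NOD_insHEL against NOD 0 with the mitochondrial share (0.013%). With 1 library left out the numbers ran from 2 to 2 (NOD_insHEL against B10_insHEL, 8.57 to 12.6% of all genes), 5 to 6 (NOD against B10, 18.4 to 31.3%), 4 to 6 (averaged, 27.6 to 33.4%), 2 to 5 (B10_insHEL against B10, 2.76 to 10.1%), 6 to 9 (NOD_insHEL against NOD, 0.682 to 9.8%) and 0 to 0 (interaction, 0.0128 to 1.04%).

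For the ratio Pcsk1n to Pcsk1 the log2 difference was 0.42 with medians (adjusted p = 0.38, exact permutation test), 0.61 with labels permuted without strata (0.0996) and 0.086 within insHEL libraries (0.8), and 0.49 to 0.68 with 1 library left out. Within insHEL libraries, where an exact permutation test of 3 against 3 cannot go below p = 0.1, the ratio Scg5 to Pcsk2 differed by 1.18, the ratio Pcsk1 to Pcsk2 by -0.13 and the ratio Pcsk1 to Ins1 plus Ins2 by -0.36.

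Replicate numbers did not pair the libraries: deviations of same-numbered libraries correlated between -0.0842 and 0.08 over 18 pairs. With the replicate block, 6 genes were called for NOD against B10 (27.8% of all genes), Pam being added (edgeR adjusted p = 0.0449). The ratio Pcsk1n to Pcsk1 lost its call (0.61, adjusted p = 0.0938, exact permutation test). The numbers of genes called in the other comparisons were 2 (NOD_insHEL against B10_insHEL, 12.1% of all genes), 5 (averaged, 32.7%), 4 (B10_insHEL against B10, 6.72%), 8 (NOD_insHEL against NOD, 6.26%) and 0 (interaction, 0.0521%).

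Signs changed only in differences that had not passed. For NOD_insHEL against B10_insHEL, Pcsk2 was -0.0079 with the acinar score and Pcsk1n 0.027 with upper-quartile scaling, and with 1 library left out Pcsk1 ran from -0.14 to 0.0065, Pcsk2 from -0.046 to 0.12, Pcsk1n from -0.17 to 0.059 and Cpe from -0.12 to 0.0083. For NOD against B10, Chgb was 0.041 with the mitochondrial share. For B10_insHEL against B10, Pcsk1n was -0.0012 with library totals, -0.24 with the acinar score and -0.055 to 0.28 with 1 library left out, and Chga ran from -0.19 to 0.043. For the interaction, Pam was -0.20 with the mitochondrial share, and Chgb was 0.0065 with DESeq2, 0.044 with library totals, 0.015 without the filter, 0.080 with the acinar score and -0.063 to 0.10 with 1 library left out, where Scg3 ran from -0.10 to 0.038.

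NOD_insHEL replicate 3, the shallowest library, still held 540 counts of Pcsk1n, the lowest of the 10 genes.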
